A study of Mus musculus with 9 samples.

Results

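The proteasome is the protease that breaks down most short-lived and misfolded proteins of a cell. Its subunits are encoded by many genes on different chromosomes that are often regulated together. The genes described here are those whose symbol, paired with a probe through the RefSeq accession of the array design, starts with Psma, Psmb, Psmc, Psmd, Psme or Psmg and a digit, together with Pomp. Of 20018 named genes on the array, 50 met that rule, and 62 probes measured them. Another 7 symbols that met it, 6 of them pseudogenes and the other Psme2b, were not analysed here. Of the 50 genes, 48 encode proteasome subunits, activators or assembly factors, and 46 of these passed the filter on dim probes, which asks for a signal well above background on every array of 1 group or more. The remaining 2, Psmc3ip and Psme3ip1, share the letters of the symbol but are no proteasome subunits, and they are left out of the counts below.

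The study compared clones of mouse embryonic cells with different numbers of chromosome sets (ploidy), and its title links triploidy with genome instability in tumour formation. The groups were 3 triploid clones, 3 tetraploid clones and 3 diploid clones, with 1 array per clone and no treatment. All 9 clones were p53-/- by the genotype label, so that every group, diploid clones included, lacked the tumour suppressor p53, and there was no group with p53. The free-text description of 8 of the samples gives rising numbers in place of p53, read here as an error of entry. The cells grew in Eagle's minimum essential medium with fetal bovine serum. The age of the embryos, the strain and the passage are not stated, and the labels do not say whether clones came from cultures of their own. The sample name of diploid clone 1 is the stem of 7 other clone names, whereas that of diploid clone 2 is unlike them. P-values therefore measure only the spread between these clones, which may share a parental line.

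Values are log2 signals of 1-colour (Cy3) arrays from which each array's 75th percentile was taken, so a value of 0 is that percentile, and a difference of 1 is a doubling. The value after ± beside a log2 difference is its standard error (SE) in limma, with 3 clones in each group. Between 44.8% and 50.9% of spots per array were well above background and 0 were saturated. Across all features the clones correlated at 0.948 to 0.985 within groups and at 0.909 to 0.975 between groups (Pearson's r over features that share arrays, as a description). Trp53, which encodes p53, had 1 probe, which was above background on 1 of 9 arrays (diploid clone 2), with values between -6.63 and -3.15, and nothing shows whether it lies in the deleted part, so it checks no label. All 10 fibroblast and mesenchyme markers passed the filter on dim probes, whereas the defining markers Pou5f1 and Zfp42 of pluripotent cells, Epcam and Cdh1 of epithelium, and Ptprc and Adgre1 of immune cells were not well above background on any array. Nanog, Cd3e, Kdr and Pecam1, single markers of other cell types, were above background on all 9 arrays, Krt18 of epithelium on 6 and Sox2 on 4, none of them triploid. None of the markers tested passed between triploid and diploid clones or between tetraploid and diploid clones, but some lay apart. Of the 10 fibroblast markers 4 were lower in all triploid than in all diploid clones (Thy1 by 8.71, Prrx1 by 1.64, Vim by 0.75 and Twist1 by 0.62 on the log2 scale), beside 10.8% of all features. Of the same 10, 3 had higher means in triploid than in diploid clones, with overlap: Col3a1 by 1.77, Pdgfra by 1.36 and Col1a2 by 0.18. Pdgfrb was lower by 1.78 with overlap. Thy1 averaged -3.18 in triploid clones, -2.05 in tetraploid clones and 5.53 in diploid clones. Its adjusted p in limma between triploid and diploid clones was 0.0603. Thy1 passed the filter on dim probes only through the diploid clones, where it was high, so this p is given only as a description. Tetraploid clone 1 stood at 2.66, above diploid clone 3 at 2.55, and tetraploid clones 2 and 3 at -4.67 and -4.13. Col1a1 averaged 7.47 in triploid clones, 7.76 in tetraploid clones and 7.51 in diploid clones. Krt18 averaged -2.94 in triploid clones, -3.65 in tetraploid clones and 0.09 in diploid clones, without overlap of either group with the diploid clones. Krt18 too passed the filter only through the diploid clones. The part of these shifts in the results below was not tested. The RNA was labelled from equal amounts, so a change in RNA per cell that affects all genes alike is not seen in these values. In a bulk sample, fewer cells of a type and less RNA per cell cannot be told apart.

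A proteasome consists of a barrel, the core particle, and of caps that open it. The barrel has outer rings of alpha subunits, which form the gate, and inner rings of beta subunits, of which Psmb5, Psmb6 and Psmb7 carry the protease sites. The 19S cap has a base, with a ring of ATPases that unfold the substrate, and a lid, which removes ubiquitin. Interferon exchanges the catalytic subunits for Psmb8, Psmb9 and Psmb10, which changes the peptides that reach the cell surface, and the activators Psme1 to Psme4 bind the barrel in place of the 19S cap. Dedicated chaperones assemble the rings. In mammalian cells short of proteasome activity the transcription factor NRF1, the product of Nfe2l1, raises the whole set of subunit genes together.

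Members that lie together raise the question of what their promoters share, so the 250 bases before each start were read from the RefSeq promoter table of the build GRCm38.p6. It held 42 starts of 39 of the genes. Both strands were searched for 5 motifs. They were CCAAT, the box bound by NF-Y; CCGGAAG, a site of ETS factors; TGACNNNGC, the core of the antioxidant response element that NRF1 and its relative NRF2 bind; GAAA and again GAAA with any 2 bases between them, a site of interferon regulatory factors (IRF); and TTCNNNGAA, the GAS site of interferon-induced genes. Matches of different motifs may overlap. The ETS letters stood in 14 of the 42 windows (33.3%), against 6.91% of all 32851 windows of the same length. CCAAT stood in 31% of the members' windows against 33.8% of all, the antioxidant core in 11.9% against 10.2%, the IRF site in 7.14% against 2.98% and the GAS site in 4.76% against 7.02%. A match of letters shows no binding.

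The sequences below were chosen after the values were seen, to show the promoter of the member that passed the test (Psmd8), of the inducible subunit Psmb9, and of members with at least 2 kinds of motif whose triploid clones all lay above the diploid clones. Each runs 5′ to 3′ and ends at the base before the start of the gene, with motifs in capitals.
Psmd8 promoter, chr7:29180674-29180923, minus strand of GRCm38.p6: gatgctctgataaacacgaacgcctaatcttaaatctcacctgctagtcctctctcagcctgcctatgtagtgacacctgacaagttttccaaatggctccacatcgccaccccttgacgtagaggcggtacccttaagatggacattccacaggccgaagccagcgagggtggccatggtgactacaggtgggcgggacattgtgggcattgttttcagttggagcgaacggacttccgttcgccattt
Psmd4 promoter, chr3:95042615-95042864, minus strand of GRCm38.p6: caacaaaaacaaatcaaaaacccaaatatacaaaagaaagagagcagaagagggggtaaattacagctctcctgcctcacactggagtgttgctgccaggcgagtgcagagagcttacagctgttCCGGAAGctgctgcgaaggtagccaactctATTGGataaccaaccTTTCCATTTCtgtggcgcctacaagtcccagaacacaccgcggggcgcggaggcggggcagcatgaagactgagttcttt
Psmc2 promoter, chr5:21785025-21785274, plus strand of GRCm38.p6: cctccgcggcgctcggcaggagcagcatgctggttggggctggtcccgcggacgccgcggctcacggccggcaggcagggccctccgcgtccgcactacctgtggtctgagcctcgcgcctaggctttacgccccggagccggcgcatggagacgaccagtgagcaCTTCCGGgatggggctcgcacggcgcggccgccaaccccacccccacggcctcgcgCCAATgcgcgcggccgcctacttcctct
Psmb3 promoter, chr11:97703184-97703433, plus strand of GRCm38.p6: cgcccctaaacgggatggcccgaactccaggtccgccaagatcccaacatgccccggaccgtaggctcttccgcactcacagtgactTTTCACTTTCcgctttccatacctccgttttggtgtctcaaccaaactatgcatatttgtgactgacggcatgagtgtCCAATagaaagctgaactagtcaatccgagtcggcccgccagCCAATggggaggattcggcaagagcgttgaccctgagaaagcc
Psmd12 promoter, chr11:107479278-107479527, plus strand of GRCm38.p6: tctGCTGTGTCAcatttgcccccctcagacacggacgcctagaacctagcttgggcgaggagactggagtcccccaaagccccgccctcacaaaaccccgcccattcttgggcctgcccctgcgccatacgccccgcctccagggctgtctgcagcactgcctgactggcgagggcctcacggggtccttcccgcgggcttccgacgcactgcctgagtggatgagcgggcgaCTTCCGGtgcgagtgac
Psmg1 promoter, chr16:95990961-95991210, minus strand of GRCm38.p6: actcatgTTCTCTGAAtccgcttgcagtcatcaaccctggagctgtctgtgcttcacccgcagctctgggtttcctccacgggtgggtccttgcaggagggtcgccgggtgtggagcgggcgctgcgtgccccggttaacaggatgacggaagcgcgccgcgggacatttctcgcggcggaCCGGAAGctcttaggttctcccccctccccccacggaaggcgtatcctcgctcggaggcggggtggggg
Psmb9 promoter, chr17:34187331-34187580, minus strand of GRCm38.p6: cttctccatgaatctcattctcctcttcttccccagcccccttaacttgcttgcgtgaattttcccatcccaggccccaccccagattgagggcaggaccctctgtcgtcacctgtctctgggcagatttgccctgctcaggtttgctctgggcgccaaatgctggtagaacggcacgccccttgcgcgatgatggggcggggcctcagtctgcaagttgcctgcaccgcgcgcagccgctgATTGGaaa
Psmd8 held none of the 5 motifs in this window. Psmd4 held a CCAAT box, an ETS and an IRF site, Psmc2 a CCAAT box and an ETS site, Psmb3 a pair of CCAAT boxes and an IRF site, Psmd12 an ETS site and the antioxidant core, Psmg1 an ETS and a GAS site, and Psmb9 a CCAAT box at the end of the window. Psmc2 had another start, not printed, whose window held an ETS site and no CCAAT box.

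The comparison of triploid with diploid clones asks what differs with 1 extra chromosome set. In the triploid clones 41 of the 46 measured proteasome genes had a mean above that of the diploid clones, with a median log2 difference of 0.49, while the median over all 21797 features was 0.10 and over named genes 0.11. Of all features, 57.8% lay above 0. Only Psmd8, a lid subunit, passed the test across all features, and it was lower (adjusted p = 0.0400, limma with Benjamini-Hochberg adjustment). Of all features, 1.84% passed in this comparison, 0.615% higher and 1.22% lower, so 1 call among 46 genes is near that background. None of the genes that lay higher passed: their adjusted p-values began at 0.0897 (Psme1). At an unadjusted p under 0.05, 17 members were higher, beside 11.6% of all features, and 1 was lower, beside 9.61%. The triploid clones all lay above the diploid clones for 23 of the 46 genes (50%), beside 17.2% of all features, and all below them for 1 gene, beside 10.8%. The 46 genes share arrays and are no independent replicates. They are also bright, with a median level of 6.02 against 0.44 over all features, and the part of brightness in these shares was not tested.

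Between tetraploid and diploid clones 32 of 46 genes lay above 0 and the median was 0.19, with -0.01 over all features, of which 48.7% lay above 0. None passed the test in limma, as against 0.0734% of all features (16, all lower), and 2 were higher at an unadjusted p under 0.05, beside 6.44% of all features, and none was lower, beside 8.36%. The groups did not overlap for 2 genes in the higher direction (beside 11%) and for 1 in the lower (beside 11.1%). Between triploid and tetraploid clones 43 genes lay above 0 with a median of 0.32, against 0.17 over all features and 61.9% of them above 0. Here too none passed in limma, beside 2.7% of all features (1.09% higher and 1.61% lower), and at an unadjusted p under 0.05, 2 were higher (beside 10.9%) and 1 lower (beside 9.89%). Of the genes, 3 did not overlap in the higher direction and 1 in the lower, beside 14.7% and 11.3% of features. The test for any difference among the 3 groups called no member and 2.38% of all features, with the lowest adjusted p of the members at 0.0525 for Psmd8. The triploid and tetraploid comparisons share the same diploid clones, so their values are not independent.

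These shifts depend in part on how arrays are set to a common scale. Relative to the median of all features, the members' median lay 0.39 higher in triploid than in diploid clones, 0.20 higher in tetraploid than in diploid clones and 0.16 higher in triploid than in tetraploid clones. With quantile normalization these distances were 0.29, 0.14 and 0.16, and with normexp background correction 0.43, 0.26 and 0.16. A constant per array, such as scaling on the median, cannot alter them, but it moved the count of genes above 0 between triploid and tetraploid clones to 34 of 46. Between triploid and diploid clones that count lay between 39 and 42 in the 5 other ways of scaling or background correction.

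**Figure D1:**
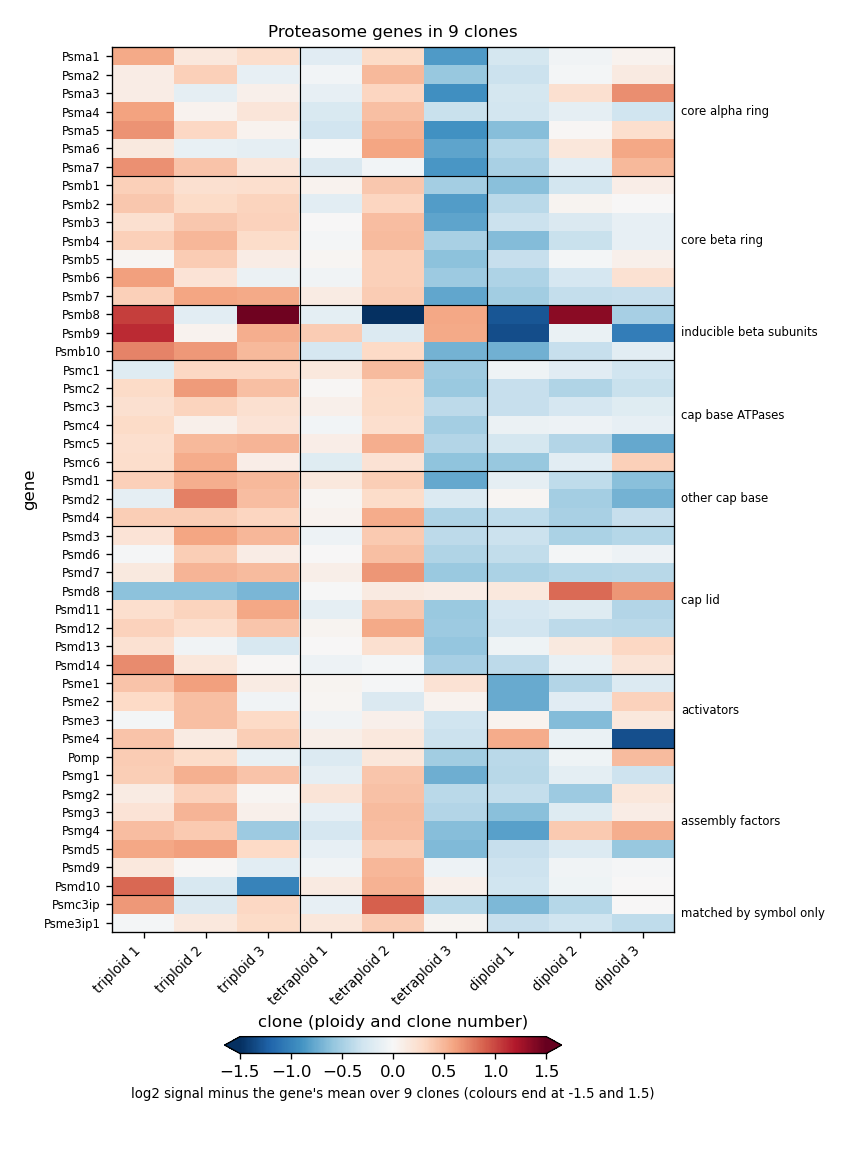
Log2 signal of 48 genes (rows, by role) in the 9 clones (columns, by ploidy and clone number), minus the mean of each gene over the clones; red is above and blue below that mean. Most rows are red in the triploid clones and in tetraploid clone 2 and blue in tetraploid clone 3 and diploid clone 1, and the row of Psmd8 is blue in the triploid clones and red in the diploid clones.

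The clones of a group did not lie equally. After each gene was centred on its mean over the 9 clones, the median over the 46 genes was 0.32, 0.35 and 0.25 in triploid clones 1 to 3, -0.02, 0.38 and -0.53 in the tetraploid clones and -0.35, -0.16 and -0.10 in the diploid clones. The triploid medians all lay above the diploid ones, while the tetraploid clones held both the highest and the lowest value of all. In triploid clones 89.1%, 87% and 78.3% of the genes lay above their own mean, in tetraploid clones 45.7%, 87% and 13% and in diploid clones 8.7%, 17.4% and 45.7%. The medians over all features spanned a smaller range, at 0.12, 0.11 and 0.02 in triploid clones, -0.01, 0.11 and -0.26 in tetraploid clones and -0.05, -0.02 and 0.03 in diploid clones. Tetraploid clone 3 also had the brightest array, with a 75th percentile of 407 intensity units, against 215 to 332 in the other 8 clones, and the part of this in its low values was not tested. The median difference between tetraploid and diploid clones was -0.0353 without tetraploid clone 2, 0.41 without tetraploid clone 3 and 0.07 without diploid clone 1. Between triploid and tetraploid clones it was 0.55 without tetraploid clone 2 and 0.16 without tetraploid clone 3. Between triploid and diploid clones it stayed between 0.36 and 0.61 with any 1 clone left out.

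**Figure D2:**
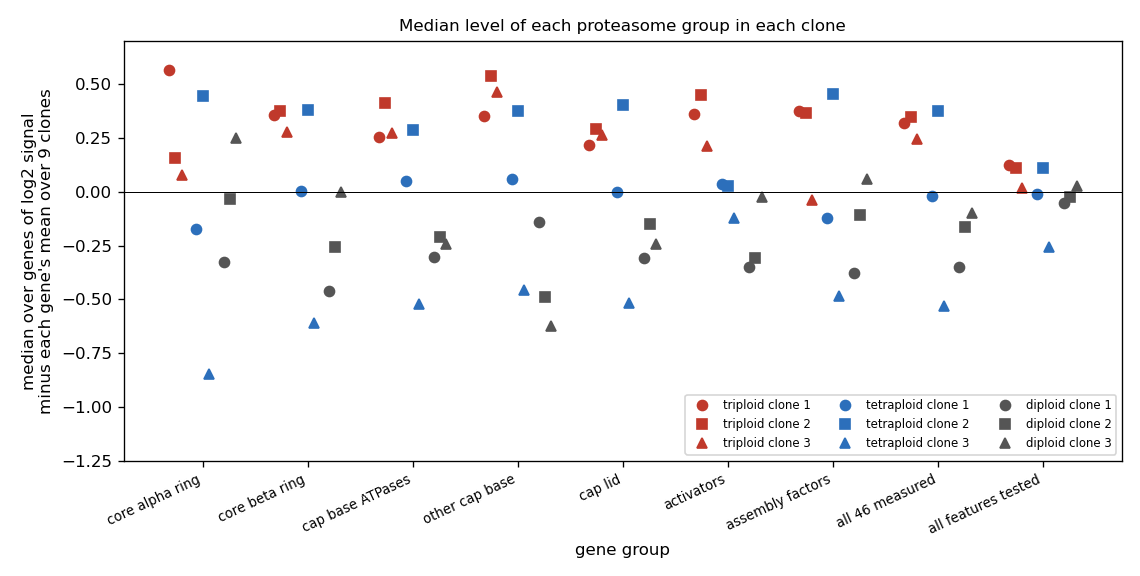
Median over the genes of each role, in log2 signal minus each gene's mean over 9 clones (vertical axis), for every clone; colours mark ploidy and shapes the clone number. The 3 triploid clones lie together above the diploid clones for the beta ring, the ATPases, the other base subunits and the lid, and tetraploid clones 2 and 3 lie far apart in all core and cap roles, with all features shown at the right.

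The alpha ring gates the core. Its 7 measured members had a median difference of 0.41 between triploid and diploid clones, -0.16 between tetraploid and diploid clones and 0.32 between triploid and tetraploid clones. None passed the test, and 5 of 7 lay above 0 in triploid against diploid clones, beside 57.8% of all features. The triploid clones all lay above the diploid clones for Psma1 and Psma4, 2 of 7, beside 17.2% of all features. Psma4 had values of 6.72, 6.16 and 6.29 in the triploid clones, 5.88, 6.56 and 5.78 in the tetraploid clones and 5.83, 5.98 and 5.81 in the diploid clones. All triploid clones lay above all diploid clones (difference 0.52 ± 0.27). For Psma7, the signals were 9.01, 8.75 and 8.51 in the triploid, 8.11, 8.29 and 7.46 in the tetraploid and 7.84, 8.17 and 8.81 in the diploid clones. The triploid clones lay above the tetraploid clones without overlap (difference 0.81 ± 0.32), but diploid clone 3 lay among them. Psma1 gave 7.26, 6.85 and 6.96 in triploid clones, 6.53, 6.98 and 5.85 in tetraploid clones and 6.44, 6.65 and 6.75 in diploid clones. Tetraploid clone 3 was lowest, and the triploid clones lay above the diploid ones by 0.41.

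Psma3 and Psma6 had lower means in triploid than in diploid clones, unlike the other alpha genes. Psma3 read 8.53, 8.29 and 8.51 in the triploid clones, against 8.31, 8.75 and 7.51 in the tetraploid clones and 8.16, 8.67 and 9.12 in the diploid clones. Diploid clone 3 was highest and tetraploid clone 3 lowest, and the differences of -0.21 (triploid minus diploid) and -0.46 (tetraploid minus diploid) were within the spread of the clones. Psma6 had a difference of -0.13 between triploid and diploid clones. Both genes lie on chromosome 12, whose 419 named genes had a median difference of -0.21 in the same comparison. By clone, the medians of chromosome 12 were -0.47, -0.02 and 0.07 in triploid clones 1 to 3. Both genes were highest in clone 1 among the triploid clones. Psmc1, on the same chromosome, lay higher by 0.32. The part of chromosome 12 in the levels of these genes was not tested. Psma2 and Psma5 differed by 0.19 and 0.47. Psma8, the testis paralogue of an alpha subunit, was well above background on 1 array, tetraploid clone 1, and was not tested.

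The inner ring holds the protease sites. All 7 constitutive beta subunits had higher means in triploid than in diploid clones, between 0.27 (Psmb5) and 0.91 (Psmb7), with a median of 0.54, and none passed the test. In 5 of them (Psmb1, Psmb2, Psmb3, Psmb4 and Psmb7) all triploid clones lay above all diploid clones, beside 17.2% of all features. Psmb7 stood at 6.33, 6.56 and 6.54 in triploid clones, at 6.10, 6.36 and 5.19 in tetraploid clones and at 5.46, 5.62 and 5.62 in diploid clones. The triploid clones lay 0.91 ± 0.30 (SE) above the diploid clones without overlap, a 1.88-fold difference (adjusted p = 0.138). Psmb4 had values of 8.60, 8.74 and 8.52 in the triploid clones, 8.22, 8.71 and 7.76 in the tetraploid clones and 7.59, 7.91 and 8.12 in the diploid clones. Here the difference between triploid and diploid clones was 0.74 ± 0.28. For Psmb2, the signals were 4.58, 4.46 and 4.51 in the triploid, 4.02, 4.50 and 3.34 in the tetraploid and 3.76, 4.22 and 4.17 in the diploid clones. Tetraploid clone 3 lay lowest and the triploid clones spanned only a narrow range. Between tetraploid and diploid clones the 7 differences ran from -0.10 (Psmb2) to 0.35 (Psmb4), with a median of 0.12.

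The inducible subunits replace the catalytic ones under interferon. Psmb9 and Psmb10 lay higher in triploid than in diploid clones by more than 1 log2 unit, and neither passed the test. Psmb9 gave -1.14, -2.21 and -1.71 in triploid clones, -1.87, -2.47 and -1.69 in tetraploid clones and -3.59, -2.36 and -3.29 in diploid clones. All triploid clones lay above all diploid clones, by 1.39 ± 0.40 (adjusted p = 0.102), and the tetraploid clones by 1.07 ± 0.40 with an overlap (adjusted p = 0.256). It was well above background on 2 of the 3 diploid arrays and on all others. The size for Psmb9 depends on the background correction: with normexp it was 0.56 between triploid and diploid clones (adjusted p = 0.243) and 0.36 between tetraploid and diploid clones, while that of Psmb10 was 1.05 between triploid and diploid clones. Psmb10 read 6.81, 6.72 and 6.55 in the triploid clones, against 5.81, 6.36 and 5.36 in the tetraploid clones and 5.35, 5.73 and 5.92 in the diploid clones. The triploid clones lay above both the tetraploid clones (0.85 ± 0.29, adjusted p = 0.138) and the diploid clones (1.03 ± 0.29, adjusted p = 0.0974) without overlap. Psmb8 stood at -0.33, -1.52 and 0.09 in triploid clones, at -1.52, -3.71 and -0.79 in tetraploid clones and at -2.66, -0.01 and -1.86 in diploid clones. Here clones of each group were spread over more than 1 log2 unit and the groups overlapped; the probe was above background on 2 of 3 tetraploid arrays. Psmb11, the subunit of the thymus, was above background on no array.

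Each inducible subunit competes with a constitutive partner for the same site, so their difference within a clone is free of the scale of the array. With the diploid mean set to 0, Psmb9 minus Psmb6 was 1.16, 0.51 and 1.30 in the triploid clones, 1.10, 0.09 and 1.77 in the tetraploid clones and -0.21, 0.82 and -0.61 in the diploid clones. Diploid clone 2 lay among the triploid clones. Psmb10 minus Psmb7 was 0.38, 0.06 and -0.08 in the triploid clones, -0.38, -0.09 and 0.07 in the tetraploid clones and -0.20, 0.01 and 0.19 in the diploid clones, and the groups overlapped. Psmb8 minus Psmb5 ran from -0.49 to 1.39 in triploid clones, from -2.66 to 1.23 in tetraploid clones and from -0.90 to 1.42 in diploid clones.

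**Figure D3:**
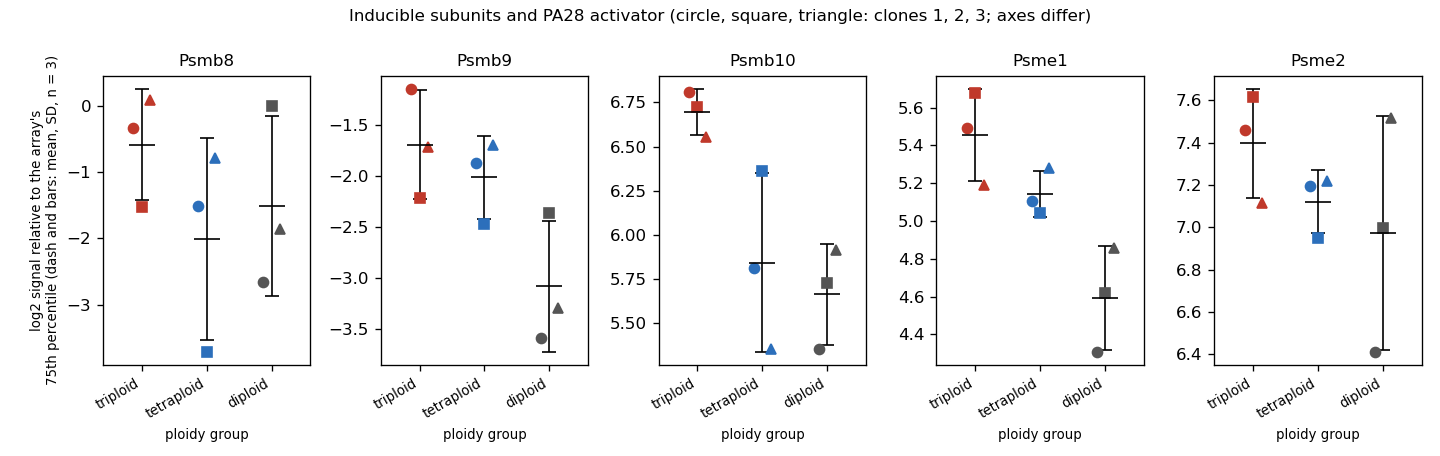
Log2 signal relative to the array's 75th percentile of the 3 inducible subunits and of the subunits Psme1 and Psme2 of the PA28 activator in each clone (points), with mean and SD over 3 clones per ploidy group; the axes differ between panels. Triploid clones lie above diploid clones without overlap for Psmb9, Psmb10 and Psme1, while Psmb8 and Psme2 overlap.

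Other genes of peptide presentation differed in part. Of 8 interferon-linked genes on the array, 4 were measured, and 2 of them rose in triploid against diploid clones, beside 0.615% of all features. Irf1, a transcription factor induced by interferon, had values of 4.61, 4.30 and 3.99 in the triploid clones, 3.61, 3.63 and 3.47 in the tetraploid clones and 2.84, 3.04 and 2.98 in the diploid clones (triploid minus diploid 1.35, adjusted p = 0.0261). Tapbp, which loads peptides on class I molecules, had values of 2.20, 2.72 and 2.01 in triploid, 2.51, 2.11 and 2.84 in tetraploid and 0.66, 0.57 and 1.04 in diploid clones (triploid minus diploid 1.56, adjusted p = 0.0352). For both genes the 3 diploid clones lay below all other clones. The tetraploid differences from diploid clones, 0.62 for Irf1 and 1.74 for Tapbp, did not pass (adjusted p = 0.238 and 0.0660). B2m, the light chain of class I, lay lower in all triploid than in all diploid clones, by 0.24, beside 10.8% of all features. Tap2 lay higher by 0.25 with overlap, and neither gene passed the test. Nlrc5 was not well above background on any array, and Tap1 and Erap1 were on 1 and 2 arrays.

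The base of the 19S cap holds the ATPases and the largest subunits. All 6 ATPase genes had higher means in triploid than in diploid clones (median 0.48). These groups did not overlap for Psmc2, Psmc3, Psmc4 and Psmc5, 4 of 6, beside 17.2% of all features in the higher direction. Psmc5 had values of 5.97, 6.21 and 6.22 in the triploid clones, 5.82, 6.26 and 5.28 in the tetraploid clones and 5.46, 5.28 and 4.95 in the diploid clones. The diploid clones and tetraploid clone 3 were the lowest, and the triploid clones exceeded the diploid clones by 0.90 ± 0.28. For Psmc2, the signals were 7.65, 8.0 and 7.81 in the triploid, 7.38, 7.65 and 6.80 in the tetraploid and 7.01, 6.91 and 7.02 in the diploid clones. Tetraploid clone 2 lay level with triploid clone 1, and the triploid clones differed from the diploid clones by 0.84 ± 0.25 (adjusted p = 0.115), and a second probe gave 0.86. Psmc6 gave 5.72, 6.02 and 5.56 in triploid clones, 5.27, 5.68 and 4.85 in tetraploid clones and 4.89, 5.30 and 5.82 in diploid clones. Diploid clone 3 lay among the triploid clones here. Psmc1, Psmc3 and Psmc4 differed by 0.32, 0.53 and 0.29.

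The other base subunits are large scaffolds and a receptor for ubiquitin. Psmd4 read 7.77, 7.77 and 7.73 in the triploid clones, against 7.46, 7.96 and 6.95 in the tetraploid clones and 7.02, 6.91 and 7.07 in the diploid clones. This ubiquitin receptor lay higher in triploid than in diploid clones by 0.76 ± 0.26 and in tetraploid than in diploid clones by 0.46 ± 0.26. Psmd1 stood at 6.81, 7.0 and 6.94 in triploid clones, at 6.62, 6.83 and 5.69 in tetraploid clones and at 6.32, 6.08 and 5.84 in diploid clones. The scaffold lay above its diploid level in all triploid clones, by 0.84 ± 0.31. Psmd2 had values of 5.82, 6.70 and 6.41 in the triploid clones, 5.98, 6.23 and 5.75 in the tetraploid clones and 5.98, 5.44 and 5.24 in the diploid clones. For this second scaffold, triploid clone 1 overlapped with diploid clone 1. All 3 genes had unadjusted p-values under 0.05 between triploid and diploid clones and none passed after adjustment.

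The lid is where the only called member lies. For Psmd8, the signals were 4.61, 4.62 and 4.54 in the triploid, 5.22, 5.36 and 5.34 in the tetraploid and 5.39, 6.08 and 5.89 in the diploid clones. Psmd8, called Rpn12 in yeast and needed there to complete the lid, averaged 4.59 ± 0.04 in triploid clones, 5.31 ± 0.08 in tetraploid clones and 5.79 ± 0.36 in diploid clones (SD, n = 3 each). Every triploid clone lay below every tetraploid clone, and every tetraploid clone below every diploid clone, the last by a small margin. The triploid clones were 2.30-fold lower than the diploid clones (log2 difference -1.20 ± 0.22 SE, adjusted p = 0.0400). Tetraploid clones differed from diploid clones by -0.48 ± 0.22 (adjusted p = 0.358) and triploid from tetraploid clones by -0.72 ± 0.22 (adjusted p = 0.120), neither of which passed. One probe measured the gene, and it was well above background on all 9 arrays.

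The call for Psmd8 is close to the threshold. It was lost without triploid clone 2 (adjusted p = 0.132), triploid clone 3 (0.146), tetraploid clone 1 (0.0767), diploid clone 2 (0.108) or diploid clone 3 (0.127), while the difference itself stayed between -1.40 and -1.05. It was also lost with no filter on dim probes (0.13), in a fit of only the triploid and diploid clones (0.0694) and with the clone number as a replicate block (0.0690). Without diploid clone 1, the single array on another slide, the difference was -1.40 (adjusted p = 0.0480).

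Set against the rest of the lid, Psmd8 moved the other way. Relative to the median of the 7 other lid genes, with the diploid mean at 0, it was -1.33, -1.35 and -1.40 in the triploid clones, -0.55, -0.77 and 0.16 in the tetraploid clones and -0.19, 0.17 and 0.02 in the diploid clones. The triploid clones lay far below all others, and tetraploid clone 3 lay among the diploid clones. Relative to the median of the other 45 proteasome genes the difference between triploid and diploid clones was -1.94, the most extreme of the 46 (exact two-sided permutation p = 0.1, the smallest that 3 against 3 clones allow). In that comparison 4 members lay higher and 9 lower without overlap, Psmd8 among the latter. Psmd8 was also chosen as the called gene, so this p does not set it apart. The other lid genes had differences between triploid and diploid clones of -0.15 (Psmd13) to 0.84 (Psmd3).

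**Figure D4:**
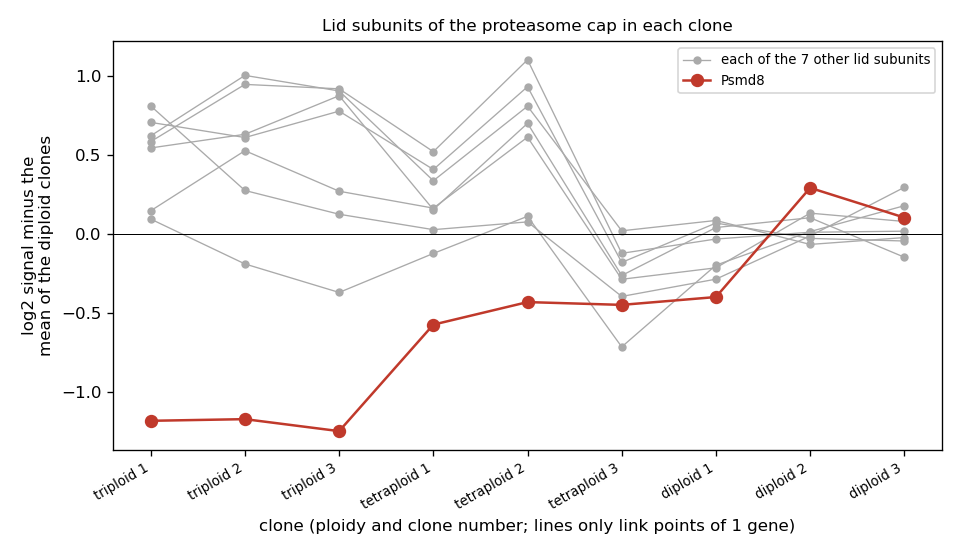
Log2 signal of the 8 lid subunits in each clone (horizontal axis), minus the mean of the diploid clones; Psmd8 is drawn in red and the 7 others in grey. Psmd8 lies below -1 in the 3 triploid clones, while 6 of the 7 other genes lie above 0 in all 3 of them.

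Psmd3 gave 7.15, 7.54 and 7.44 in triploid clones, 6.87, 7.34 and 6.55 in tetraploid clones and 6.62, 6.47 and 6.51 in diploid clones. The triploid clones lay above the diploid clones by 0.84 ± 0.25 (adjusted p = 0.107) and this gene had the highest difference of the lid. Psmd7 read 5.63, 6.00 and 5.97 in the triploid clones, against 5.57, 6.15 and 4.93 in the tetraploid clones and 5.02, 5.06 and 5.07 in the diploid clones. Tetraploid clones 1 and 2 lay above all diploid clones and tetraploid clone 3 below them. Psmd14 stood at 5.90, 5.37 and 5.22 in triploid clones, at 5.12, 5.17 and 4.70 in tetraploid clones and at 4.81, 5.08 and 5.39 in diploid clones. This gene encodes the enzyme that cuts ubiquitin chains from the substrate, and the triploid clones lay above the tetraploid clones without overlap (0.50 ± 0.27). Psmd6, Psmd11 and Psmd12 differed between triploid and diploid clones by 0.32, 0.68 and 0.70, each without overlap. Over the whole cap, base and lid together, 15 of 17 genes lay above 0 with a median of 0.68, and over the core 12 of 14 with a median of 0.47. The difference between cap and core was not tested.

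The activators are caps without ATPases. All 4 measured genes had higher means in triploid than in diploid clones and in tetraploid than in diploid clones (medians 0.51 and 0.20). Psme1 had values of 5.49, 5.68 and 5.19 in the triploid clones, 5.11, 5.04 and 5.28 in the tetraploid clones and 4.31, 4.62 and 4.86 in the diploid clones. Psme1, which forms the PA28 ring with Psme2, lay in all triploid and all tetraploid clones above all diploid clones, by 0.86 ± 0.23 (adjusted p = 0.0897) and 0.55 ± 0.23 (adjusted p = 0.312). For Psme2, the signals were 7.46, 7.62 and 7.11 in the triploid, 7.19, 6.95 and 7.22 in the tetraploid and 6.41, 7.0 and 7.52 in the diploid clones. Its partner spanned more than 1 log2 unit in the diploid clones alone, and the groups overlapped. Psme3 gave 2.88, 3.35 and 3.20 in triploid clones, 2.85, 2.98 and 2.61 in tetraploid clones and 2.95, 2.25 and 3.06 in diploid clones. The nuclear activator differed by 0.39 between triploid and diploid clones. Psme4 read 1.47, 1.17 and 1.42 in the triploid clones, against 1.13, 1.21 and 0.72 in the tetraploid clones and 1.60, 0.95 and -0.27 in the diploid clones. Diploid clone 3 lay below all other clones for this activator, and the groups overlapped.

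Assembly factors showed the lowest median of the roles between triploid and diploid clones, 0.30, with 7 of 8 above 0 and none past the test. Those that pair up to build the alpha ring are Psmg1 to Psmg4. Psmg1 stood at 6.52, 6.69 and 6.58 in triploid clones, at 6.01, 6.57 and 5.42 in tetraploid clones and at 5.74, 6.01 and 5.84 in diploid clones. All triploid clones lay above all diploid clones, by 0.73 ± 0.29. Psmg2 had values of 4.30, 4.52 and 4.21 in the triploid clones, 4.37, 4.61 and 3.77 in the tetraploid clones and 3.82, 3.62 and 4.34 in the diploid clones. Here tetraploid clone 2 was highest and the groups overlapped. For Psmg3, the signals were 4.57, 4.87 and 4.44 in the triploid, 4.24, 4.84 and 3.93 in the tetraploid and 3.74, 4.17 and 4.48 in the diploid clones. The order of groups was the same as for Psmg1, with overlap (triploid minus diploid 0.50). Psmg4 gave 4.12, 4.05 and 3.1 in triploid clones, 3.40, 4.12 and 3.02 in tetraploid clones and 2.84, 4.05 and 4.20 in diploid clones. Clones of each group spread over more than 1 log2 unit.

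Pomp guides the beta ring and the closure of the core. Pomp read 7.2, 7.10 and 6.70 in the triploid clones, against 6.61, 6.99 and 6.29 in the tetraploid clones and 6.41, 6.75 and 7.30 in the diploid clones. Diploid clone 3 was the highest of all clones and the groups overlapped. Psmd5, Psmd9 and Psmd10 are chaperones of the ATPase ring. Psmd5 stood at 4.50, 4.53 and 4.22 in triploid clones, at 3.8, 4.29 and 3.26 in tetraploid clones and at 3.57, 3.71 and 3.35 in diploid clones. The triploid clones lay above the diploid clones by 0.87 ± 0.28 without overlap. Psmd9 had values of 3.68, 3.54 and 3.36 in the triploid clones, 3.47, 4.02 and 3.45 in the tetraploid clones and 3.21, 3.47 and 3.50 in the diploid clones. The largest difference between groups was 0.25 (tetraploid minus diploid). For Psmd10, the signals were 3.87, 2.77 and 2.01 in the triploid, 3.15, 3.54 and 3.09 in the tetraploid and 2.71, 2.94 and 3.02 in the diploid clones. Triploid clones alone spanned nearly 2 log2 units on this X-linked gene, from the highest value of all to the lowest, and the tetraploid clones lay above the diploid clones without overlap.

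**Figure D5:**
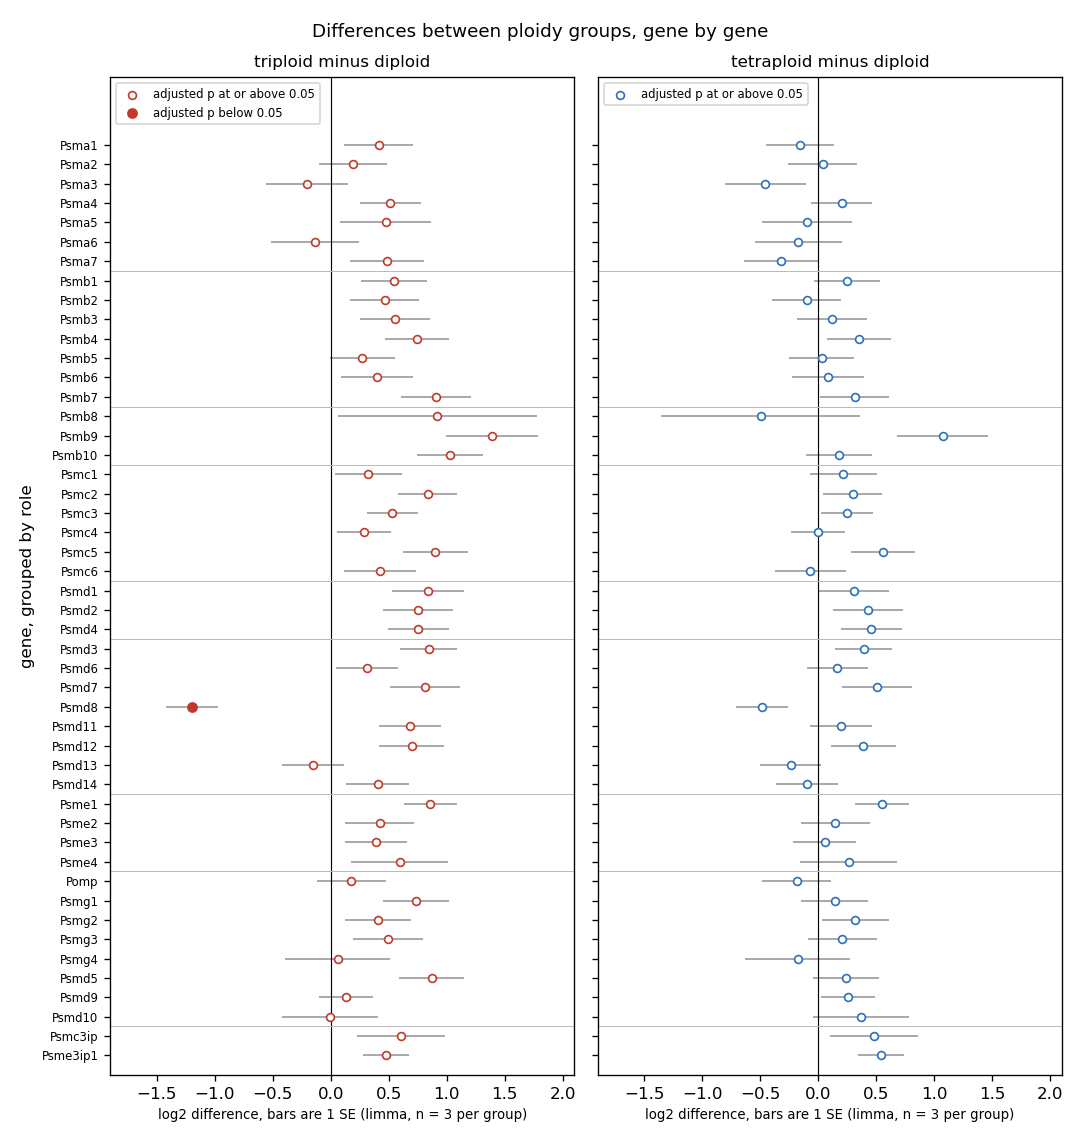
Log2 difference of each gene (rows, by role) between triploid and diploid clones (left) and tetraploid and diploid clones (right), with 1 SE of the model on either side; filled points pass an adjusted p of 0.05. Psmd8 is the single filled point, and 41 of the 46 proteasome genes lie right of 0 in the left panel.

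The genes matched by symbol alone were Psmc3ip, which acts in meiotic recombination, and Psme3ip1, which binds Psme3. Psmc3ip gave 3.35, 2.5 and 3.02 in triploid clones, 2.59, 3.60 and 2.28 in tetraploid clones and 2.04, 2.29 and 2.71 in diploid clones. The groups overlapped. Psme3ip1 read 2.69, 2.89 and 3.01 in the triploid clones, against 2.90, 3.11 and 2.77 in the tetraploid clones and 2.39, 2.43 and 2.34 in the diploid clones. All triploid and all tetraploid clones lay above the diploid clones, by 0.48 ± 0.20 and 0.54 ± 0.20.

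A comparison within the complex removes any shift that all members share. Each gene was set against the median of the other 45 on the same array. Between triploid and diploid clones, differences then ran from -1.94 (Psmd8) to 0.68 (Psmb9). The groups did not overlap for 4 genes in the higher direction (Psmb7, Psmb10, Psmc2 and Psmg1), beside 1.66% of all features set against the median proteasome gene, and for 9 in the lower (Psma2, Psma3, Psma6, Psmb5, Psmc4, Psmd6, Psmd8, Psmd9 and Psmd13), beside 43.3% of all features. After Psmd8 the lowest were Psmd13 at -0.88, Psma3 at -0.80 and Psma6 at -0.73. Between tetraploid and diploid clones 4 genes were higher without overlap (beside 4.35%) and 3 lower (beside 16.6%), and between triploid and tetraploid clones 1 was higher (beside 3.23%) and 15 lower (beside 28.7%). The reference is the members' own median, which lay 0.39 above that of all features between triploid and diploid clones. That choice alone moves the other features down, so the counts of members cannot be judged against these shares.

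Chromosomes were looked at because clones of unlike ploidy may carry unlike numbers of single chromosomes, and the arrays do not measure copy number. Psmd8 lies on chromosome 7, whose 984 named genes had a median difference of -0.27 between triploid and diploid clones and of -0.15 between tetraploid and diploid clones. By clone, the medians of chromosome 7 were 0.01, -0.22 and -0.20 in the triploid clones, 0.03, 0.01 and -0.04 in the tetraploid clones and 0.14, 0.14 and 0.19 in the diploid clones. The other members of this chromosome, Psma1, Psmc4 and Psmd13, differed by 0.41, 0.29 and -0.15 between triploid and diploid clones. The part of chromosome 7 in the level of Psmd8 was not tested.

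The 10 measured named genes nearest to Psmd8 on the chromosome were taken, 5 on each side in the order of GRCm38.p6. Their median difference between triploid and diploid clones was -0.31, and 1 of 10 lay above 0, beside 57.8% of all features. Ppp1r14a, an inhibitor of a phosphatase, was the 1 of these 10 that passed the test, and it was lower, beside 1.22% of all features. Ppp1r14a averaged -2.64 in triploid clones, -0.46 in tetraploid clones and 1.01 in diploid clones (difference -3.65, adjusted p = 0.0322 in limma). Fam98c differed by -0.96 (adjusted p = 0.0805) and 2200002D01Rik by -1.74 (adjusted p = 0.320), neither passing. Other members with a neighbour called lower in this comparison were Psmc1, Psmd3, Psmg1 and Psmg2 (1 each) and Psmd10 (2). On the same chromosome, the 10 neighbours of Psmc4, of Psma1 and of Psmd13 had medians of -0.34, -0.16 and -0.05. Psmc4, Psma1 and Psmd13 themselves differed by 0.29, 0.41 and -0.15. For Psmb9 and Psmb10 the medians of the neighbours were 0.28 and 0.26, and for Psme1 -0.07.

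Genes that act with the proteasome were followed through a list of 29, of which 28 were measured. It holds ubiquitin receptors, deubiquitinases, ubiquitin genes and the controllers of subunit transcription. In triploid against diploid clones 23 lay above 0 with a median of 0.40, none passed in limma (beside 1.84% of all features), and the groups did not overlap for 10 in the higher and 1 in the lower direction (beside 17.2% and 10.8%). Between tetraploid and diploid clones 17 lay above 0 (median 0.13) and between triploid and tetraploid clones 23 (median 0.28), and none passed in either. Psmf1, an inhibitor of the core, had the lowest adjusted p of the list between triploid and diploid clones (0.110). Its values of 1.39, 1.47 and 1.84 in the triploid clones, 1.15, 1.18 and 1.21 in the tetraploid clones and 0.96, 0.88 and 0.83 in the diploid clones did not overlap between any groups.

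Controllers of subunit transcription belong to this list, and their part in the levels of the members was not tested. Ddi2, the protease that activates NRF1, had values of 1.27, 1.49 and 1.49 in the triploid clones, 0.51, 0.98 and 0.24 in the tetraploid clones and 0.69, 0.84 and 0.51 in the diploid clones. Triploid clones lay above all others, by 0.74 against diploid clones (adjusted p = 0.135) and 0.84 against tetraploid clones (adjusted p = 0.0927). Nfe2l1 itself had values of -0.91, -0.49 and -0.48 in the triploid clones, -0.37, -0.76 and -0.12 in the tetraploid clones and -1.19, -1.11 and -0.61 in the diploid clones, with a difference between triploid and diploid clones of 0.34, and the groups overlapped. Nfe2l2, the gene of NRF2, was higher in all triploid than in all diploid clones by 0.69 (adjusted p = 0.158). Ngly1, which deglycosylates NRF1, differed by 0.99 between tetraploid and diploid clones (adjusted p = 0.241 in limma). Between triploid and tetraploid clones it differed by -1.35 (adjusted p = 0.0761 in limma). It was above background on 5 of 9 arrays: 1 triploid, 3 tetraploid and 1 diploid. Ngly1 thus passed the filter on dim probes only through the tetraploid clones, where it was high, so these p-values are given only as a description. The ubiquilin Ubqln2 differed by -0.80 between triploid and tetraploid clones without overlap. None of these differences passed.

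Second probes gave a check on single genes. Of the 50 genes, 12 had a second probe, and for all 12 both probes had the same sign between triploid and diploid clones. The widest gap was that of Pomp, at 0.46 and 0.18. In the other comparisons the signs were unlike for Pomp (0.11 and -0.19) and Psme4 (-0.03 and 0.26) between tetraploid and diploid clones and for Psmd9 (0.09 and -0.12) between triploid and tetraploid clones. Psmd8 has 1 probe and no such check.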

How the data were processed

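RNA of 9 clones was hybridised to 1-colour arrays, 1 array per clone. The authors deposited the scanner output of each array, made with Feature Extraction 10.7.3.1, per the file headers, which holds background-subtracted intensity values per spot, and a log2 table. By comparison with the scanner values, the deposited log2 table is each array's log2 signal minus a constant and minus diploid clone 1 (within 0.01 for 100% of 55598 probes).

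From 59305 spots, log2 processed signals were averaged per probe without control and outlier spots, and each array's 75th percentile was subtracted. Of 55681 probes, 25469 passed the filter on dim probes (well above background on every array of 1 group or more). The brightest probe was taken per gene, and unnamed probes were added, giving 21797 features (12434 named genes). Symbols and promoters come from RefSeq tables of GRCm38.p6. Groups were compared with limma 3.58.1 in R 4.3.3 with 1 mean per group and Benjamini-Hochberg adjustment over all features, with a threshold of 0.05, and the script was tested on simulated data. The number of arrays limits the precision. The members and lists, and the rule for named genes (fixed members per role, with every clone's value), were chosen with earlier results of these data known. One gene of the interferon-linked list is not reported here. Clone numbers were not taken to pair the samples. Background correction, scaling, probe filter, slide, replicate block and left-out clones were varied. Depth has no counterpart on arrays.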

Additional observations from a re-analysis of the deposited data

How the results depend on the processing

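The single call among the members between triploid and diploid clones, Psmd8, was not kept with no filter on dim probes (0 members called, adjusted p of Psmd8 0.13), in a fit of only these groups (0 called, 0.0694) or with the clone number as a replicate block (0 called, 0.0690), and the count ranged between 0 and 1 when each clone was left out in turn. Under the other alternatives it was kept, among them the slide block, which amounts to a fit without diploid clone 1. In the test for any difference among the groups, 1 member was called with normexp correction, with the percentile over probes above background on all arrays, with median scaling, with quantile normalization, with probes above background on all 9 arrays and with a trend in eBayes, against 0 otherwise. The cause was not tested.

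Same-numbered clones deviated from their group means with correlations of -0.132 to 0.0928. These values cannot show whether such clones share a culture or an origin. With the replicate block the calls over all features were 219 between triploid and diploid clones, against 400 without it.

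With each clone left out, the members' median lay between -0.0353 (without tetraploid clone 2) and 0.41 for tetraploid minus diploid, between 0.36 and 0.61 for triploid minus diploid and between 0.16 and 0.55 for triploid minus tetraploid. Over all features, calls between triploid and diploid clones numbered 103 with no filter, 206 in the fit of these groups, 241 with median scaling and 81 with the slide block, and 61 (without triploid clone 2) to 1434 (without triploid clone 1) with a clone left out. Higher calls made up 33.5% of them, against 21.3% with the percentile over detected probes. Between tetraploid and diploid clones calls numbered 0 with no filter, slide block or replicate block and 97 with the percentile over detected probes, against 16, and 0 to 40 with a clone left out. Between triploid and tetraploid clones they numbered 198 with no filter, 369 in the fit of these groups and 284 with the slide block, against 589, and 117 (without triploid clone 3) to 1312 (without triploid clone 1) with a clone left out. Higher calls were 26.4% of them with median scaling, against 40.2%. No value for the test among the groups exists in a fit of only 2 groups.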
